A study of Mus musculus with 2 samples.

Results

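The extracellular matrix of the dermis holds, beside its collagens, proteoglycans, elastic fibres, adhesive glycoproteins and the enzymes that fold and cross-link collagen. The 49 genes described here cover these classes together with fibroblast markers, and were listed by symbol. The list and its classes were chosen with earlier results of these data known. All 49 were among the 23233 genes listed in the deposited table. Skin cells were taken from the ventral skin of C57BL/6 mice 7 days after birth, digested with dispase and collagenase, stained for the zinc importer ZIP10 and sorted. The 2 groups were ZIP10-positive cells and ZIP10-negative cells, with 1 library each and the same strain, age and tissue. The sample names speak of hair follicle cells, whereas the protocol describes a suspension of the skin with no selection for follicles or for fibroblasts, and the number of animals is not given in the sources used here. With 1 library per group there was no test, and every difference below is between these libraries only.

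Dermal fibroblasts are known to secrete fibril-forming collagen and to coat its fibrils with small leucine-rich proteoglycans, which set fibril width and spacing. They also lay down microfibrils of fibrillin and fibulins, onto which elastin is deposited, and adhesive or matricellular proteins through which cells bind and sense the matrix. In the endoplasmic reticulum, prolyl and lysyl hydroxylases modify the collagen chains and a dedicated chaperone binds the triple helix before secretion, after which lysyl oxidases cross-link the fibrils.

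Levels are in RPKM, reads scaled to transcript length and library size. Most genes of the table had higher RPKM in the ZIP10-positive library, and the ratio of the median gene, taken over those that reached 1 RPKM in each library, was 1.97. Each gene is therefore given relative to this median gene, on the scale log2((positive + 1)/(negative + 1)) in RPKM after removing that shift, unless its value is called deposited. Of all RPKM in the ZIP10-negative library 59.4% belonged to globin genes, against 3.46% in the ZIP10-positive library. Depth was estimated at 2780989 reads for ZIP10-positive and 2712792 reads for ZIP10-negative cells. Read numbers of the members were estimated from it, and the intervals below are exact 95% intervals of the plain RPKM ratio relative to the median gene. They cover counting error only.

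Members of the matrix list were well represented, and the 43 tested members above 0 in both libraries ran from -1.36 to 1.57 in log2 ratio relative to the median gene. Of the 49 members 44 reached 1 RPKM in at least 1 library, and 24 reached 10 RPKM. In deposited RPKM 34 of the 44 stood higher and 10 lower in ZIP10-positive cells. Of all 12249 genes that passed the same filter 82.7% stood higher. By 2-fold or more 13 members were higher and 0 lower, against 44.1% and 3.55% of these genes. Relative to the median gene 3 members were at least 2-fold higher, Mfap5, Dpt and Lum, while 14.7% of all genes were. At least 2-fold lower were 7 members, Fbn1, Fbln2, Fbn2, P4ha2, Sparc, Matn2 and Aspn, or 15.9% of those tested, beside 11.4% of all genes. The median over the 44 was -0.14, against 0.09 over all tested genes.

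Abundance was concentrated in a few members. The 6 most abundant members of the ZIP10-positive library, Vim, Serpinh1, Sparc, Pcolce, Bgn and Dcn, held 69.0% of the summed RPKM of the 49 there and 73.7% in the ZIP10-negative library. The 10 most abundant members of each library had 9 in common. The summed deposited level of the 49 was 2175 RPKM for ZIP10-positive and 1569 RPKM for ZIP10-negative cells, a ratio of 1.39, which became 0.703 relative to the median gene. The same sums over all genes, globin genes included, had ratios of 1.03 and 0.521. In bulk libraries such as these, fewer cells of a type and less RNA per cell cannot be told apart.

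**Figure D1:**
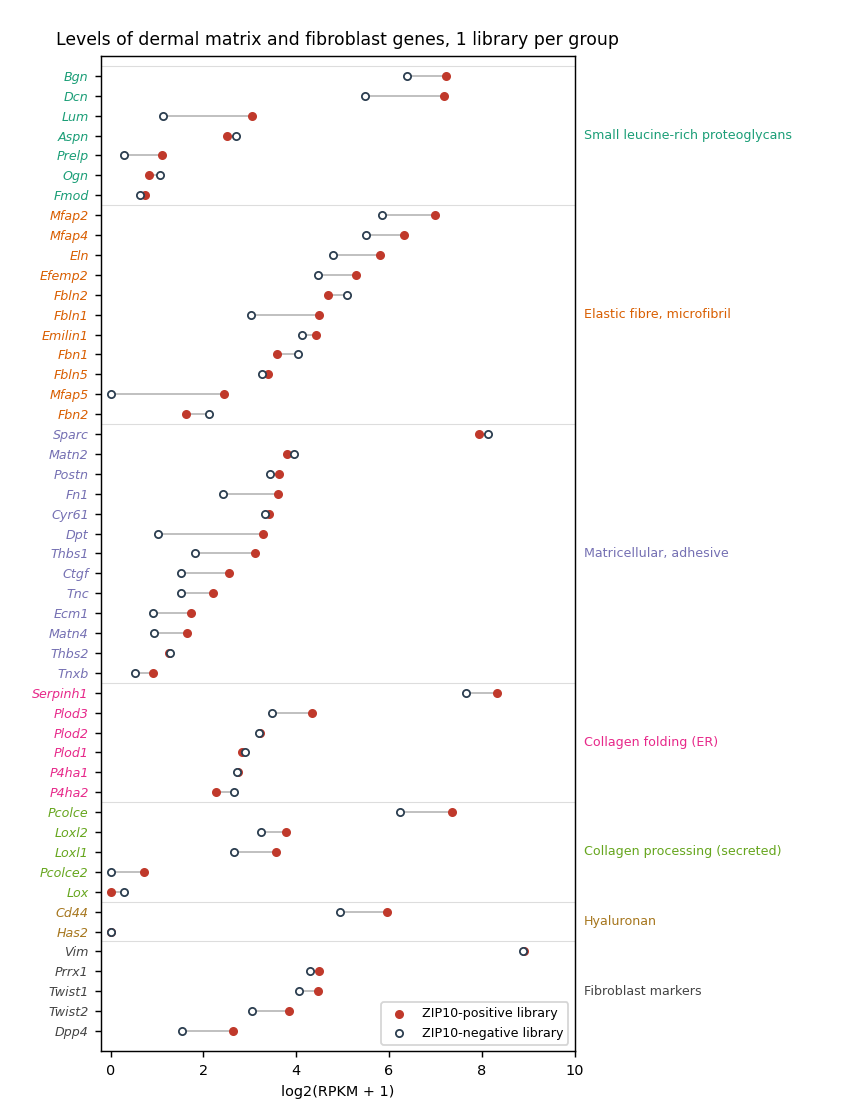
Level of each of the 49 members as log2(RPKM + 1) in the ZIP10-positive library (filled red) and the ZIP10-negative library (open), by class, 1 library per group. Vim and Sparc lie at the right with nearly equal levels in both libraries, whereas Dcn, Lum, Dpt and Mfap5 are farther right in ZIP10-positive cells.

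The small leucine-rich proteoglycans diverged within the class. Dcn, which encodes decorin, a coat protein of collagen fibrils, was measured at 144 RPKM among ZIP10-positive and 43.9 RPKM among ZIP10-negative cells, a log2 ratio of 0.73. Its counting interval of 1.41 to 1.97 lay above the median gene. Lum, encoding the related lumican, was lower in level, at 7.29 against 1.18 RPKM, with a log2 ratio of 1.22. About 46 and 7 reads supported it, and its interval ran from 1.46 to 8.54. Bgn, encoding biglycan, had nearly the level of Dcn in ZIP10-positive cells at 149 RPKM, but stood at 82.2 RPKM in ZIP10-negative cells, a log2 ratio of -0.12. The intervals of Bgn, 0.823 to 1.03, and of Dcn did not overlap. Aspn, which encodes asporin, a proteoglycan that binds collagen and calcium, went below the median gene, at 4.72 against 5.53 RPKM and a log2 ratio of -1.01. That value rests on 28 and 32 reads, with an interval of 0.251 to 0.743.

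Ogn, Prelp and Fmod, which encode osteoglycin, prolargin and fibromodulin, were near the limit of detection. Ogn stood at 0.769 and 1.10 RPKM, on 5 and 7 reads, and Prelp at 1.16 and 0.217 RPKM, on 11 and 2 reads. Fmod stayed under the filter, at 0.676 and 0.555 RPKM. For these genes a difference was not detectable at this depth, since the intervals of Ogn, 0.0885 to 1.29, Prelp, 0.594 to 25.3, and Fmod, 0.133 to 3.12, all span the median gene. Of the 6 proteoglycan genes that passed the filter 3 lay above the median gene and 3 below, with a median of 0.18, and of all tested genes 45.5% lay below it.

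Several of these proteoglycan genes are neighbours on the chromosome. In the RefSeq annotation of GRCm38.p6 Dcn, Lum, Kera and Epyc follow one another on chromosome 10, and Ecm2, Aspn, Omd and Ogn do so on chromosome 13, with no other protein-coding gene lying wholly between them. In the first row Dcn and Lum both lay above the median gene, while Kera and Epyc were listed at 0 in both libraries. In the other row values were mixed, with Omd, encoding osteomodulin, at 6.39 against 1.73 RPKM and a log2 ratio of 0.70 beside Aspn at -1.01. Among the 8 other proteoglycan genes of this family that were looked up, only Omd and Ecm2 reached 1 RPKM in a library, neither of them 2-fold from the median gene.

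Elastic fibre genes separated into fibrillins, some fibulins and Emilin1 below the median gene and other genes of the class near or above it. Against the median gene of similar transcript length, a scale described below, the split was less clear. There Mfap2 lay at -0.50 and Mfap4 at -0.41, near Emilin1 at -0.52 and Fbln5 at -0.40, while Fbn1, Fbn2 and Fbln2 remained the lowest of the class. Fbn1, encoding fibrillin-1, the main chain of microfibrils, had 10.9 RPKM with ZIP10-positive and 15.4 RPKM with ZIP10-negative cells. Relative to the median gene its log2 ratio was -1.36, with an interval of 0.314 to 0.414 from about 358 and 491 reads. Fbn2, the fibrillin gene known for its expression in developing tissue, had 2.10 and 3.33 RPKM and a log2 ratio of -1.19. Fbln2, whose product fibulin-2 links microfibrils with other matrix proteins, stood at 24.8 and 33.4 RPKM, at a log2 ratio of -1.36 and an interval of 0.324 to 0.436. These are the only members of the class that were at least 2-fold lower. All 3 had lower deposited RPKM in ZIP10-positive cells too, which a 2-fold lower value implies at a median gene shift of 0.98 in log2.

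Fbln5, required for elastic fibre assembly, and Emilin1, a glycoprotein at the elastin-microfibril interface, had log2 ratios of -0.75 and -0.62. Their intervals of 0.439 to 0.713 and 0.515 to 0.784 lay below the median gene. Eln itself, encoding tropoelastin, stood at 54.5 against 26.6 RPKM, a log2 ratio of 0.06, and so moved with the median gene. The microfibril-associated genes Mfap2 and Mfap4 were the most abundant of the class, at 127 and 79.0 RPKM against 56.3 and 44.4 RPKM. Their log2 ratios were 0.19 and -0.15, and their intervals, 0.926 to 1.40 and 0.751 to 1.09, span the median gene. Efemp2, encoding fibulin-4, which brings lysyl oxidase to elastin, was similar at 38.0 against 21.2 RPKM and -0.13.

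Fbln1 and Mfap5 stood at the upper end of the elastic fibre class. Fbln1, encoding fibulin-1, was measured at 21.5 against 7.12 RPKM, a log2 ratio of 0.57 with an interval of 1.16 to 2.05, opposite in direction to Fbln2. Mfap5, encoding a microfibril-associated glycoprotein, stood at 4.47 RPKM, about 16 reads, in the positive library, while the negative library lists it at 0. A listed 0 can be a failed estimate in this table, which also lists Psmg4, a proteasome assembly gene in use in most cells, at 69.5 against 0 RPKM, so no fold is given for it, although it counts among the members at least 2-fold higher. Of the 11 genes 4 lay above the median gene and 7 below, beside 45.5% of all tested genes below it. Among 12 other elastic fibre genes 9 passed the filter, none 2-fold higher and 1 lower, beside 14.7% and 11.4% of all tested genes. The median of these 9 was -0.66. The lower one was Ltbp1, a microfibril-binding protein that holds latent TGF-beta, at a log2 ratio of -1.44.

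**Figure D2:**
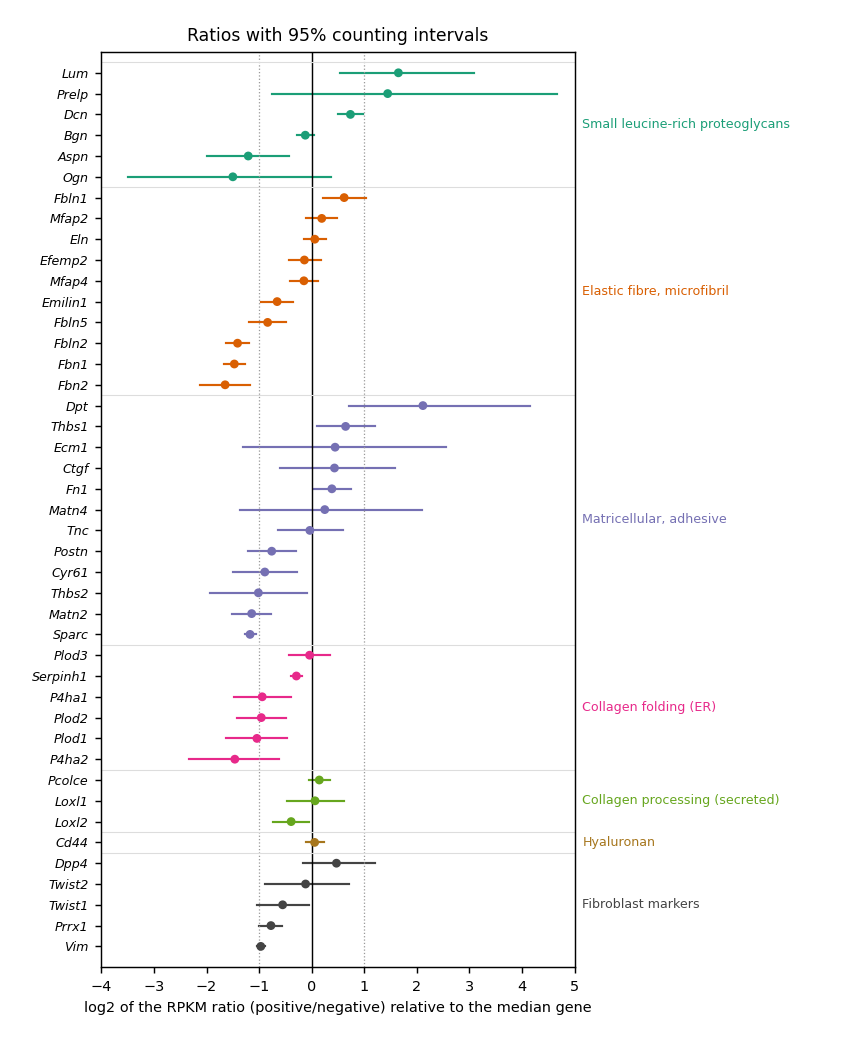
RPKM ratio of ZIP10-positive to ZIP10-negative cells relative to the median gene (log2, no pseudocount) for the 43 members with values in both libraries and at least 1 RPKM in one, by class. Lines are exact 95% counting intervals, the solid vertical line is the median gene and the dotted lines are 2-fold either way. Lum, Dcn, Fbln1, Dpt, Thbs1 and Fn1 have intervals wholly above the median gene, and Prelp, Ogn, Ecm1 and Matn4 have the widest intervals.

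Matricellular and adhesive genes ran from Sparc at -1.17 to Dpt at 1.57. Sparc, encoding osteonectin, a collagen- and calcium-binding protein, was the third most abundant member in ZIP10-positive cells, at 245 RPKM, and stood at 280.3 RPKM in ZIP10-negative cells. Its log2 ratio was -1.17, and about 1431 and 1597 reads gave a narrow interval of 0.413 to 0.477. Matn2, encoding the filament-forming adaptor matrilin-2, lay at the same side at 12.9 against 14.4 RPKM and -1.06. Postn, encoding periostin, a ligand of integrins, stood at 11.4 against 9.81 RPKM and -0.69. Its interval of 0.432 to 0.808 excluded the median gene.

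Dpt went the other way. This gene encodes dermatopontin, a small protein of the dermis that binds decorin, and it had 8.78 RPKM in the positive and 1.03 RPKM in the negative library. The log2 ratio of 1.57 rests on about 37 and 4 reads, with an interval of 1.64 to 17.7. Fn1, encoding the adhesive glycoprotein fibronectin, was closer to the median gene, at 11.2 against 4.36 RPKM and 0.34, with an interval of 1.03 to 1.67, and it fell to -0.03 when scaled without globin genes and Rn45s. Thbs1, encoding thrombospondin-1, which can activate latent TGF-beta, had 7.70 against 2.50 RPKM and a log2 ratio of 0.52, with an interval of 1.08 to 2.31. Its relative Thbs2, at 1.38 against 1.42 RPKM and 22 reads in each library, lay at -0.59, and the intervals of these thrombospondin genes did not overlap, since that of Thbs2 ran from 0.261 to 0.937.

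The CCN genes Cyr61 and Ctgf, early-response genes whose products bind integrins, also lay on opposite sides of the median gene. Cyr61 stood at 9.65 against 9.08 RPKM, a log2 ratio of -0.80 with an interval of 0.352 to 0.826, and Ctgf at 4.90 against 1.84 RPKM and 0.32. The interval of Ctgf, 0.658 to 2.99, spans the median gene and overlaps that of Cyr61, so a difference between these relatives was not detectable at this depth. Tnc, Ecm1, Matn4 and Tnxb, which encode tenascin-C, extracellular matrix protein 1, matrilin-4 and tenascin-X, were all under 4 RPKM in both libraries. Their log2 ratios lay between -0.03 and 0.26, and Tnxb did not pass the filter. Among the 12 tested genes of this class 6 lay above the median gene and 6 below, beside 45.5% of all tested genes below it. Of 15 other matricellular genes 9 passed the filter, with 1 at least 2-fold higher and 4 lower, beside 14.7% and 11.4% of all genes. The higher one was Tgfbi, a TGF-beta-induced adhesive protein, at 30.3 against 4.76 RPKM, and the lowest was Nid2, a basement membrane nidogen, at 1.30 against 3.78 RPKM.

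Collagen-folding enzymes of the endoplasmic reticulum were the class that lay lowest. All 6 were below the median gene, at a median of -0.83, beside 45.5% of all tested genes below it. Serpinh1, encoding the collagen chaperone HSP47, was by far the most abundant, at 322 RPKM in the positive and 200.3 RPKM in the negative library. It lay only slightly below the median gene at -0.29, with an interval of 0.759 to 0.881. P4ha1 and P4ha2, the catalytic subunits of prolyl 4-hydroxylase, stood at 5.71 and 3.81 RPKM against 5.56 and 5.32 RPKM. Their log2 ratios were -0.80 and -1.19, and their intervals, 0.357 to 0.759 and 0.1995 to 0.651, both excluded the median gene.

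The lysyl hydroxylase genes were not uniform. Plod1 and Plod2 had nearly equal levels in both libraries, at 6.13 and 8.34 RPKM against 6.40 and 8.23 RPKM, which placed them at -0.90 and -0.85. Plod3, whose product also transfers sugars to collagen, was more abundant, at 19.3 against 10.1 RPKM, and lay at the median gene at -0.04. Its interval of 0.743 to 1.28 did not overlap those of Plod1, 0.325 to 0.726, and Plod2, 0.371 to 0.713. Among 13 other collagen biosynthesis genes 9 passed the filter, at a median of -0.13. Of these 9, 3 lay above the median gene and 6 below, beside 45.5% of all tested genes below it. At least 2-fold higher was 1 of them and lower 1, beside 14.7% and 11.4% of all tested genes. Ppib, encoding the prolyl isomerase cyclophilin B, which also serves secretory proteins other than collagen, was the higher one, at 338 against 65.7 RPKM. Adamts2, the protease that removes the amino-terminal propeptide of procollagen, was the lower one, at 5.89 against 10.1 RPKM.

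Secreted collagen-processing genes lay near the median gene. Pcolce, which encodes an enhancer of the procollagen C-proteinase, stood at 163 RPKM against 74.7 RPKM, a log2 ratio of 0.14 with an interval of 0.962 to 1.28. The lysyl oxidase-like genes Loxl1 and Loxl2 stood at 10.9 and 12.7 RPKM against 5.29 and 8.43 RPKM, at log2 ratios of 0.06 and -0.36. Lox, the founding lysyl oxidase gene, was listed at 0 in ZIP10-positive cells and at 0.217 RPKM in ZIP10-negative cells, and Pcolce2 at 0.648 RPKM in ZIP10-positive and 0 in ZIP10-negative cells. Of the hyaluronan genes Cd44, encoding the hyaluronan receptor, stood at 61.4 against 30.0 RPKM and a log2 ratio of 0.05. Has2, a hyaluronan synthase gene of fibroblasts, was listed at 0 in both libraries. Among 10 other hyaluronan genes 8 passed the filter, with 1 at least 2-fold higher and 1 lower, beside 14.7% and 11.4% of all genes. Hyal2, a hyaluronidase gene, was the higher one, at 39.3 against 6.94 RPKM. Hmmr, a hyaluronan-binding protein of dividing cells, was the lower one, at 1.21 against 3.85 RPKM.

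Of the 5 fibroblast markers 4 lay below the median gene, beside 45.5% of all tested genes. As deposited all 5 stood higher in ZIP10-positive cells, as did 82.7% of all tested genes. Vim, encoding the intermediate filament protein of mesenchymal cells and leukocytes, was the most abundant member in each library, at 478 RPKM in the positive and 475 RPKM in the negative one. Relative to the median gene it lay at -0.97, with an interval of 0.484 to 0.5399. Prrx1 and Twist1, which encode transcription factors of mesenchyme, stood at 21.6 and 21.2 RPKM against 18.8 and 15.7 RPKM, at log2 ratios of -0.74 and -0.52. Their intervals of 0.502 to 0.679 and 0.484 to 0.964 lay below the median gene. Twist2, the related dermal factor, lay at -0.11, at 13.3 against 7.31 RPKM, and Dpp4, a surface peptidase of papillary and fascial fibroblasts, at 0.36, with 5.25 against 1.92 RPKM. The intervals of these last genes, 0.537 to 1.63 and 0.89 to 2.295, span the median gene. Against the median gene of similar transcript length, a scale described below, Prrx1 lay at -0.15 and Twist1 at -0.78. On that scale Twist2 lay at -0.19, Dpp4 at 0.65 and Vim at -1.06.

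Other fibroblast genes that are not on the list reached lower than the members, to -2.41 for Thy1. Of 14 such genes 13 passed the filter, with 2 at least 2-fold higher and 2 lower, beside 14.7% and 11.4% of all tested genes. Clec3b, encoding tetranectin, had 8.20 RPKM, while the negative library lists it at 0, and Ly6a, the surface protein SCA-1, stood at 11.2 against 1.77 RPKM. Thy1, a surface protein of fibroblasts and, in mice, of T cells, stood at 38.5 against 107 RPKM, and Pdgfrb, a receptor of mural cells and fibroblasts, lay at -1.16. The 8 collagen genes looked up for comparison all lay below the median gene, beside 45.5% of all tested genes. Their median was -0.80, with 2 at least 2-fold lower, beside 11.4% of all genes. Col1a1, at 97.9 against 168 RPKM, was the lowest at -1.74. Against the median gene of similar transcript length, a scale described below, the median of the 8 was -0.41. On that scale 1 of the 8 was at least 2-fold lower, beside 10.6% of all genes, and Col5a2 lay above 0 at 0.16.

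The promoters of members that were 2-fold from the median gene are shown so that Dpt, which was higher, can be set beside members that were lower. Sequences are the 250 bases before the transcription start, from RefSeq on GRCm38.p6, a different build from the mm9 named in the submitters' processing notes. Of the 49 members 34 had such a sequence in use here. The rest had none in the source or lay on a chromosome left out for members but kept among all windows. Mfap5, Lum, Fbn2 and Matn2 are among the rest, so their promoters are not shown. Of the 34, 6 were at least 2-fold from the median gene with 1 start listed. Capitals mark matches to any of 7 motifs on either strand. The TATA box was searched as the letters TATAAA and the GC box as the letters GGGCGG. An E-box was any match to CANNTG and an AP-1 site any match to TGANTCA. The TEAD site was searched as GGAATG, and the CCAAT box and the CArG box by name. Matches of different motifs could overlap. The windows lie at chr1:164796413-164796662 on the plus strand for Dpt and chr11:55420081-55420330 on the minus strand for Sparc. Those of Fbn1 and Fbln2 are chr2:125506439-125506688 on the minus strand and chr6:91212514-91212763 on the plus strand. Aspn and P4ha2 have chr13:49544193-49544442 and chr11:54100674-54100923, both on the plus strand.
Dpt: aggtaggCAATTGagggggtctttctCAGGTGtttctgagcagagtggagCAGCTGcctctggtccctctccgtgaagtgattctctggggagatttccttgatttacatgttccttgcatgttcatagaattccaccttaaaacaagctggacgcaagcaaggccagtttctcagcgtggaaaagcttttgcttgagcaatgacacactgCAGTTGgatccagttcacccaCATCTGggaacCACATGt
Sparc: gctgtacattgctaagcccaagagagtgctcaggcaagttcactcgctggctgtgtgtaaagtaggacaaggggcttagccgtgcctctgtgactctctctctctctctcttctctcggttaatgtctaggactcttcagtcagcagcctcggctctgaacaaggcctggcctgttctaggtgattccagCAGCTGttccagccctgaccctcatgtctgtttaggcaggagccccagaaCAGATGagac
Fbn1: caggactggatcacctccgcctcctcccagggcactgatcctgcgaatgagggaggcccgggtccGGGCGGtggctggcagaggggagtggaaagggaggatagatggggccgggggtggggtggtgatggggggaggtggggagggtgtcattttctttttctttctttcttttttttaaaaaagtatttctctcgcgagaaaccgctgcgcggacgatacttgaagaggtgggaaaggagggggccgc
Fbln2: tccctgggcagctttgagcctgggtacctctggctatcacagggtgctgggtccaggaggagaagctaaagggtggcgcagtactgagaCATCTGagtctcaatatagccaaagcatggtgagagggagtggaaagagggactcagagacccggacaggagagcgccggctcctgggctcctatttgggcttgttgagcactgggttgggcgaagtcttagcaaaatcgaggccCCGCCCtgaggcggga
Aspn: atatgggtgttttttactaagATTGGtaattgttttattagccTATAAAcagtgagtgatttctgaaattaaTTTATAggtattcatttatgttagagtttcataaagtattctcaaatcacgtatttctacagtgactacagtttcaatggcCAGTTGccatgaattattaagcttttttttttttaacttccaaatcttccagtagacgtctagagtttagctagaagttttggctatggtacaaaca
P4ha2: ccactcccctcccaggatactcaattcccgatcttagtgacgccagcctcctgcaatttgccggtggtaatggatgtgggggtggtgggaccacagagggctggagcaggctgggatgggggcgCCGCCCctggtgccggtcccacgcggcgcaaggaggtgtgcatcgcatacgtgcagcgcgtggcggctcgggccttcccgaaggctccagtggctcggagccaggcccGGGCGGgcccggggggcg

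These promoters did not share one make-up. The Dpt window held 6 E-boxes, the letters to which the Twist factors and many other helix-loop-helix proteins bind, and no match to the other motifs. The window of Pcolce, which lay near the median gene at 0.14, also held 6. The windows of Sparc, Fbn1, Fbln2, Aspn and P4ha2 held 2, 0, 1, 1 and 0 E-boxes. Windows with 6 or more E-boxes made up 0.274% of all 32851 promoter windows of this length, a count looked up after the Dpt window was seen. The Aspn window was poorest in G and C, at 30.0%, and held 2 TATA boxes and 1 CCAAT box far from the start, whereas that of P4ha2 reached 70.0% with 2 GC boxes. Fbn1 and Fbln2 had 1 GC box each. Over the 34 members with a window, GC boxes were found in 19, or 55.9%, against 32.7% of all windows, TATA boxes in 11, or 32.4%, against 12.4%, and E-boxes in 21, or 61.8%, against 66.2%. AP-1 sites were found in 2 of 34 members, TEAD sites in 6 and a CArG box in none, against 6.75%, 12.6% and 1.47% of all windows. A member counts if any of its listed starts holds the motif, a match is not a binding site, and motifs were not looked at beyond these 250 bases.

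Transcript length moved with the ratio across the table. When the tested genes were divided by length into 10 groups of equal size, from the shortest to the longest group the median log2 ratio fell from 0.83 to -0.36, and the share at least 2-fold higher fell from 42.0% to 2.48%. Over 12095 tested genes with an annotated length Spearman's rho was -0.34, a correlation across genes of the same 2 libraries. Among the 44 tested members rho was -0.22. The 22 shorter members had a median of -0.13 and the 22 longer ones, over 3224 bases, a median of -0.47. Fbn1 and Fbn2 are the longest members below the median gene, while Fn1, of 8315 bases, lay above it.

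**Figure D3:**
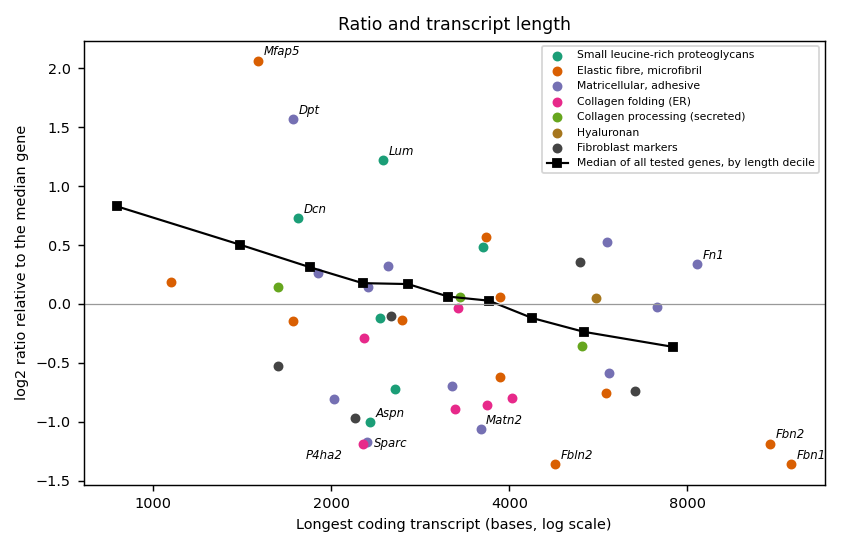
Log2 ratio relative to the median gene against the longest coding transcript of the gene (bases, log scale). Coloured points are the 44 tested members by class, and black squares are medians of all tested genes in 10 groups of transcript length, falling from 0.83 to -0.36. Fbn1, Fbn2 and Fbln2 lie below the squares at the long end, and Mfap5, Dpt and Lum above them at the short end, where the position of Mfap5 rests on a listed 0 and on the pseudocount of 1.

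Members were also set against the median gene of their own length group, 1 of the 10. On that scale 3 of 44 members were at least 2-fold higher and 5 lower, against 12.3% and 10.6% of all genes. Dpt stood at 1.37 and Lum at 1.15, and the other was Mfap5, listed at 0 in ZIP10-negative cells. Sparc and P4ha2, both at -1.27, and Aspn, at -1.09, were at least 2-fold lower, now with Vim at -1.06 and Cyr61 at -1.04. Fbln2 at -0.98, Matn2 at -0.96, Fbn1 at -0.80 and Fbn2 at -0.75 were less than 2-fold lower, and Fn1 stood at 0.87. The median over the 44 was -0.22, against 0.09 over all tested genes.

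Counting intervals were also set against the median gene. Of 43 tested members with values in both libraries 20 had intervals wholly below the median gene, or 46.5%, beside 25.0% of 11339 genes. Wholly above it were 6, or 14.0%, beside 25.8% of genes, and 17 spanned it. These shares carry the length relation described above, whose part in them was not tested. They also depend on read number, since more reads give a narrower interval. Serpinh1, at -0.29 on about 1861 and 1127 reads, counts as wholly below. The part of read number was not tested either. Some members also share exon bases with another annotated gene, and the reads of such genes cannot be told apart where strand was not used in counting. At least 10% of exon bases are shared in 4 members, Twist2 at 46.5%, Ctgf at 23.2%, Fbn1 at 20.1% and Plod3 at 11.7%, each with a gene of the opposite strand in GENCODE vM21.

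The zero point decides on which side of 0 most classes lie. As deposited, the class medians ran from 0.024 for the collagen-folding genes to 0.92 for the secreted collagen-processing genes, beside 0.87 over all tested genes. Relative to the median gene the class medians ran from -0.83 to 0.18, beside 0.09 over all tested genes. Scaled to all but the 50 most abundant genes, each class median lay below 0, from -1.10 for the collagen-folding genes to -0.025 for the proteoglycans. The median over all tested genes was -0.16 there. The proteoglycan median and the matricellular one, at -0.14, lay above it and the other class medians below it. Dpt, Lum, Dcn and Mfap5 stayed above 0 and Sparc, Fbn1, Fbn2, Fbln2, Aspn, Matn2 and P4ha2 below 0 under each scaling relative to other genes. The other shifts were 1.29 and 1.39 against 0.98 in log2, and length groups differed from the median gene by -0.61 to 0.70. Moves of this size could hardly carry genes this far out across 0, so the kept signs follow from which genes were named. As deposited, the 7 genes below 0 also stood lower in ZIP10-positive cells, but none of them 2-fold. With a median gene shift of 0.98 in log2, this direction follows from their being at least 2-fold lower relative to the median gene.

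**Figure D4:**
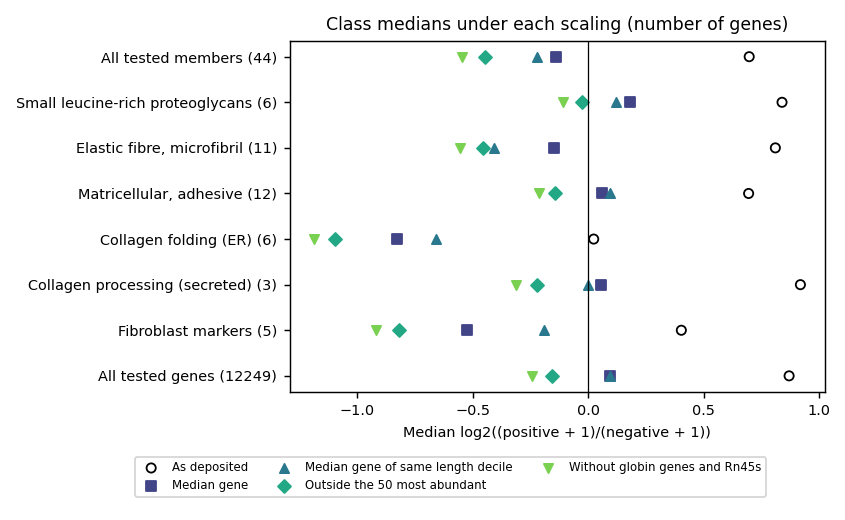
Median log2((positive + 1)/(negative + 1)) of each class with at least 3 tested members, of all tested members and of all tested genes, under 5 scalings, with the number of genes in parentheses. The collagen-folding genes have the lowest median under each scaling shown. As deposited every class median is above 0, as is the median over all tested genes, at 0.87.

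Markers of other cells differed between these libraries beside the matrix genes. The 9 macrophage markers summed to 862 deposited RPKM in the positive and 12.8 RPKM in the negative library, with 5 listed at 0 in the latter, and 6 of 8 tested markers were at least 2-fold higher. Lyz2 alone made up 772 RPKM against a listed 0, and the other 8 summed to 90.7 against 12.8 RPKM. The 5 mast cell markers summed to 299 against 14.3 RPKM, with 4 at least 2-fold higher, and all 6 erythroid markers were at least 2-fold lower. Of the dermal papilla markers 1 of 6 was higher and 1 lower, of the adipocyte markers 1 of 3 tested was higher, of the Schwann cell markers 1 of 5 was higher and 1 lower, and of the melanocyte markers 2 of 6 were lower. The 7 pericyte and smooth muscle markers summed to 164 against 57.4 RPKM, of which 1 was 2-fold higher and 1 lower, and the 8 keratinocyte markers to 2376 against 831 RPKM, of which 2 were higher and 1 lower. The 5 T cell markers summed to 90.7 against 616 RPKM and all were at least 2-fold lower. Endothelial markers were low, at 8.18 against 3.67 RPKM summed over 6 genes, with Emcn listed at 0 in both libraries. Macrophages are known to express Fn1 and Thbs1, and leukocytes Vim and Cd44, so these members are not limited to fibroblasts. The part of such cells in the ratios was not tested. The 6 fibroblast markers fixed for this check, Col1a1, Col1a2, Col3a1, Pdgfra, Dcn and Lum, were above 0 in both libraries and summed to 531 against 447 deposited RPKM. The ratio of these sums was 1.19 as deposited and 0.602 relative to the median gene. The median over the 6 was -0.69, with 1 at least 2-fold higher and 1 lower. Against the median gene of similar transcript length the median over the 6 was -0.23, again with 1 higher and 1 lower.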

How the data were processed

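The authors deposited one table of RPKM values, per the table's own name, 1 for each symbol in either library. Cutadapt, TopHat, Cufflinks and mm9 appear in the submitters' processing notes; for versions, annotation and strand use the sources used here give nothing. Overlapping genes can share reads.

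The comparison used log2((positive + 1)/(negative + 1)), whose pseudocount of 1 makes changes of low genes look smaller, and kept genes that reached 1 RPKM in at least 1 library. The median log2 ratio of 9620 genes at 1 RPKM in both libraries, 0.98, was divided between the libraries. Differences of at least 2-fold were counted by size.

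Members, classes and lists were chosen with earlier results of these data known. Any member could be named; other genes were named as the most abundant or extreme of a list, or as neighbours of members on the chromosome, the latter after their values were seen, as were Pdgfrb, Psmg4 and Emcn. Intervals of members outside the planned ones were also added after values were seen.

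Read numbers rest on whole-number ratios. Of 1389 genes above 0 and up to 1 RPKM in each library 64.8% had a ratio of whole numbers up to 20 times 0.975, at a tolerance of 0.0012%. Of 119 genes with 1 transcript 30.3% lay within 1.4% of the most frequent depth, with an assumed offset of 199 bases. Of the 49 members 20 matched a pair of whole reads at an annotated length (GENCODE vM21, GRCm38) within 3%; for the rest reads came from depth and the longest coding transcript. The scripts ran in Python 3.11.15 with scipy 1.17.1, numpy 2.4.6 and pandas 2.3.3, and the calculation was tested on simulated data.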

Additional observations from a re-analysis of the deposited data

How the results depend on the processing

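Alternatives were pseudocounts of 0.1 and 5, 1 RPKM in both libraries or no filter, and 3 other scalings, together with scaling by length decile, which was chosen after seeing the data. The count of 3 members at least 2-fold higher became 0 with a pseudocount of 5, beside 5.61% of all genes, and 13 as deposited. The count of 7 lower became 3 with a pseudocount of 5, 0 as deposited, 14 with scaling outside the 50 most abundant genes and 16 without globin genes and Rn45s, where the shares of all genes were 3.01%, 3.55%, 16.8% and 19.2%. The median over all tested members turned from -0.14 to 0.70 as deposited, beside 0.87 over all tested genes. As deposited the medians also turned to 0.024 for collagen-folding genes, 0.81 for elastic fibre genes and 0.40 for fibroblast markers, and moved to 0.69 for matricellular and 0.92 for secreted collagen-processing genes. Outside the 50 most abundant genes and without globin genes and Rn45s, respectively, medians were -0.45 and -0.55 for elastic fibre genes, -0.14 and -0.21 for matricellular genes, -0.22 and -0.31 for secreted collagen-processing genes and -0.025 and -0.11 for proteoglycans. Over all tested genes the medians under these scalings were -0.16 and -0.24. The matricellular median was -0.31 over the 10 genes at 1 RPKM in both libraries. The proteoglycan median was -0.12 with no filter. Scaling by length decile left 3 members at least 2-fold higher and changed the 7 lower to 5. The elastic fibre median moved from -0.15 to -0.41, and its 3 genes at least 2-fold lower became 0. Fibroblast markers moved from -0.52 to -0.19 and collagen-folding genes from -0.83 to -0.66. On the same scale medians were 0.12 for proteoglycans, 0.10 for matricellular genes and about 0 for secreted collagen-processing genes. Among 21 named members no sign changed with either pseudocount, 7 changed as deposited, and 3 changed under each of the other scalings, length decile included. No paired analysis was possible because each group has 1 library. Depth limits members under about 1 RPKM, where 1 read on 2000 bases is worth 0.205 RPKM.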
